A study of Mus musculus with 24 samples.

Results

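The subunits of the ionotropic glutamate, GABA-A and glycine receptors were followed in ribosome-associated RNA from the spinal cord of 8-week-old mice. Members were chosen by gene symbol alone, from the names of the Gria, Grik, Grin, Grid, Gabr and Glr families. This gave 42 of the 38924 genes listed, made up of 18 glutamate, 19 GABA-A and 5 glycine receptor subunits. In the RiboTag method used, Cre recombinase switches an allele of the ribosomal protein gene Rpl22 to a form with an HA tag, and an antibody against HA pulls down the tagged ribosomes with their mRNA. Cre came from the Chat locus, which is active in all cholinergic cells of the cord, so motor neurons were not separated from cholinergic interneurons or autonomic neurons. All mice carried the Rpl22 allele on a background labelled B6.CgxB6.129, and each of the 4 groups had 6 libraries named by mouse number. Mutants with Cre were labelled Rpl+/-;Chat+/-;C201R+/- and wild types with Cre Rpl+/-;Chat+/-;C201R+/+. Mutants without Cre were labelled Rpl+/-;Chat+/+;C201R+/- and wild types without Cre Rpl+/-;Chat+/+;C201R+/+. C201R is a dominant mutation of Gars, the gene of glycyl-tRNA synthetase, and the study asked how it changes ribosome-associated mRNA in motor neurons. Pulldowns without Cre are the background measured in the same way, since they hold only RNA that came down without a switched tag.

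Motor neurons are the last neurons of the motor pathway, and their firing is set by the fast synaptic input they receive. Glutamate opens AMPA, kainate and NMDA receptors, which are cation channels of 4 subunits that depolarise the cell. GABA and glycine open chloride channels of 5 subunits. In the adult spinal cord the glycine receptor of alpha 1 and beta subunits, anchored by gephyrin, carries much of the inhibition of motor neurons. Subunit choice sets how a receptor behaves: Gria2 makes AMPA receptors impermeable to calcium, and Grin1 is needed in every NMDA receptor.

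Libraries held 8.90 to 28.3 M (1e6) expected counts. Their numbers in the labels fell into separate runs, called here library series 1 (7 libraries) and 2 (17 libraries), without saying what the runs stand for. Chat, the enzyme that makes acetylcholine, was higher with Cre by 4.35 ± 0.29 on the log2 scale (SE, edgeR quasi-likelihood test with Benjamini-Hochberg adjustment, adjusted p = 3.837e-13, 12 libraries against 12). All 8 tested markers of cholinergic neurons were called higher, with a median log2 change of 4.499, and their summed level was 903 to 1681 CPM (counts per 1e6, scaled by TMM) with Cre and 45.6 to 257.8 CPM without. Markers of other spinal neurons were lower, 8 of 9 called, with a median of -1.52, and all 8 oligodendrocyte and all 8 astrocyte markers were lower. Gars was higher in mutants than in wild types with Cre by 0.80 ± 0.12 (adjusted p = 0.00204). Among libraries with Cre, mouse 14003-1 (mutant) and mouse 14701-9 (wild type) stood apart: mitochondrial transcripts took 15.8% and 17.1% of their counts, against 1.24% to 6.45% in the other 10. Reads assigned to Gm26924, which mostly derive from ribosomal RNA, were also highest in these 2 mice within their groups, at 43.3% and 30.8%. Mutants 14003-4 and 14701-5 came next to 14003-1, at 36.9% and 32.9%, whereas the wild type next to 14701-9 was at 11.9%. In mutants with Cre these reads took 32.9% to 43.3% in series 1 and 8.01% to 20.9% in series 2. In wild types with Cre the reads took 11.9% and 30.8% in series 1 and 7.45% to 11.1% in series 2. With the series in the fit, Gm26924 was not called between genotypes with Cre (0.91, adjusted p = 0.364). Results for genotype are given with and without those 2 mice.

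The members with the largest and the most certain rise with Cre, Grin3b and Glrb, differed in the 250 bases before their starts, which are shown here for that reason. The sequences are from RefSeq (GRCm38.p6), 5′ to 3′ on the strand of the gene, with CG dinucleotides in capitals. The window of Grin3b is chr10:79970474-79970723 on the plus strand, and that of Glrb is chr3:80913661-80913910 on the minus strand.
Grin3b: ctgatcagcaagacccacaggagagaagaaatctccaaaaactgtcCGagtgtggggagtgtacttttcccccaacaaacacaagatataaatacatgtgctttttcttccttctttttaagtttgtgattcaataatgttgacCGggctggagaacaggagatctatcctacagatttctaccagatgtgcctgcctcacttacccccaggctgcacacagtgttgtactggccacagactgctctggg
Glrb: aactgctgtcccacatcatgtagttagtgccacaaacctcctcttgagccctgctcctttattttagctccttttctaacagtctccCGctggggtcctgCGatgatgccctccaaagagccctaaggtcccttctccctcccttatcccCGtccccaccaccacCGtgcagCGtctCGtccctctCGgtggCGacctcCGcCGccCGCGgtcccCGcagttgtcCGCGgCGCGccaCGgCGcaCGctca
The Grin3b window held 2 CG dinucleotides and the Glrb window 20. Of 32851 such windows of all genes, 29.0% held at most as many as Grin3b and 17.9% at least as many as Glrb, with a median of 6. The motif TATAAA, read on both strands, occurred 1 time in the Grin3b window and 0 times in that of Glrb, and 12.4% of all windows held it. Windows were at hand for 29 members (33 windows), with 0 to 42 CG and a median of 8. These are descriptions of sequence, not of binding.

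The glycine receptor subunits Glrb and Glra1, Grin3b, Grin1 and the AMPA subunits Gria3 and Gria4 were higher with Cre, whereas Gria1, Gria2, Grin2b, 3 of the 5 kainate subunits and Gabra4 were lower. Over both genotypes, 35 members were abundant enough to test. Of these, 13 were called higher (adjusted p under 0.05), as were 33.1% of all 16109 genes tested, and 10 were called lower, as were 37.2% of all genes. The members therefore rose and fell about as often as genes in general, and their median log2 change of -0.18 lay near that of all genes, -0.12. Without mice 14003-1 and 14701-9 the counts were 15 higher and 11 lower, and the share of all genes called in that fit is not given here. Before any scaling, the 42 members together took 0.224 ± 0.0742% of counts in wild types and 0.146 ± 0.0615% in mutants with Cre, and 0.0978 ± 0.0182% and 0.0952 ± 0.0305% without (SD, n = 6). Mitochondrial transcripts took 35.2% to 55.5% of counts without Cre and 1.24% to 17.1% with it. In bulk pulldowns, fewer cells of a type and less RNA per cell cannot be told apart.

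**Figure D1:**
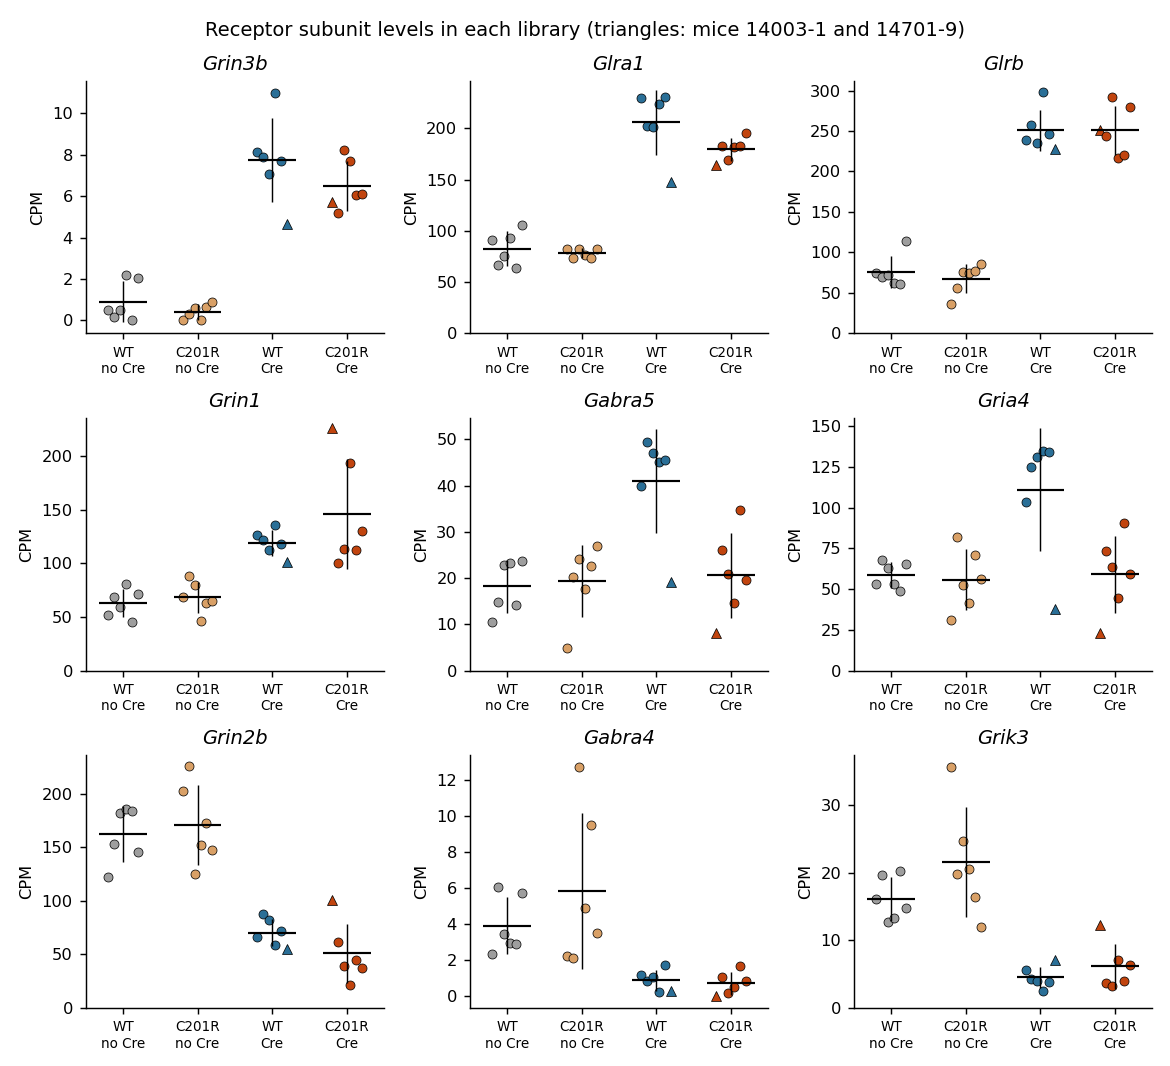
Levels of 9 subunits in CPM (vertical axis, own scale per panel) in the 4 groups. Points are libraries, bars are the mean ± SD (n = 6), and triangles mark mice 14003-1 and 14701-9. Glrb and Grin3b with Cre lay above every library without Cre.

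Glrb, the beta subunit that binds gephyrin, had the highest level per length of all members in wild types with Cre, 96.5 ± 9.80 CPM per kb (SD, n = 6), followed by the ligand-binding subunit Glra1 at 92.8 ± 14.2 CPM per kb. These neighbours differed by less than their spread, and both exceeded Grin1, at 34.1 ± 3.47 CPM per kb. In wild types with Cre Glrb lay between 228 and 299 CPM with a median of 243, and without Cre between 61.5 and 114 with a median of 70.8. Mutants gave 217 to 292 (median 247) with Cre and 36.8 to 85.2 (median 75.5) without. Every library with Cre was above every library without it, and the pooled rise was 1.87 ± 0.13 on the log2 scale (adjusted p = 4.83e-13). Glra1 was likewise apart, at 147 to 231 CPM in wild types and 164 to 195 CPM in mutants with Cre, against 63.4 to 106 and 73.3 to 82.7 CPM without. Its rise was 1.29 ± 0.11 (adjusted p = 1.038e-11). Glra2, the alpha subunit of immature neurons, changed by 0.68 ± 0.33 (adjusted p = 0.0657), and Glra3 by -0.37 ± 0.49 (adjusted p = 0.501). Glra4 was too low to test, at 0 to 2.25 CPM. The groups of 5 members did not overlap on the higher side and of 4 on the lower side, where 11.1% and 7.42% of all genes did the same.

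Among GABA-A subunits, the less studied Gabrq (theta) and Gabre (epsilon) rose by 1.19 ± 0.22 and 1.54 ± 0.48 from low levels. Gabrq had medians of 11.8 and 16.7 CPM with Cre against 5.34 and 8.52 CPM without (wild type first, mutant second), and Gabre 3.01 and 4.01 against 1.18 and 0.825 CPM. Within each genotype, Gabre was called in mutants (2.30 ± 0.73, adjusted p = 0.0124) and not in wild types (0.49 ± 0.57, adjusted p = 0.468), and the interaction did not call the difference (1.93, adjusted p = 0.554). The pooled Gabre call was lost with the share of Gm26924 as a covariate (0.78, adjusted p = 0.267). Gabra5, an alpha subunit found largely outside synapses, rose by 0.87 ± 0.21 (adjusted p = 0.000682) and Gabrg1 by 0.77 ± 0.25 (adjusted p = 0.00744). Both were called in wild types alone, and neither was in mutants alone under TMM (0.60 and 0.62).

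Gabra4 and Gabrg3 fell. Gabra4 was at most 1.71 CPM with Cre and at least 2.09 CPM without, a change of -2.45 ± 0.43 (adjusted p = 1.054e-05). Gabrg3 changed by -1.27 ± 0.19 (adjusted p = 1.017e-06), with 5.33 to 12.6 CPM with Cre and 12.7 to 50.2 CPM without. Gabra3 changed by -0.49 ± 0.16 (adjusted p = 0.00787), a call that ended with scaling by library totals alone (0.19, adjusted p = 0.442). It was not called in mutants alone (-0.33). The beta subunits Gabrb2 and Gabrb1 were not called, with changes of -0.23 ± 0.18 and -0.40 ± 0.28. Gabra2 was not called either. The subunits Gabra6, Gabrp and Gabrr1 to Gabrr3 stayed under 3 CPM in every library and were not tested. Gabrd, the delta subunit, was at 0 counts in all 6 wild-type libraries without Cre and at 115 counts over the 6 with Cre. Against a floor of 3 counts over the group this is at least 12.9-fold higher, a bound that covers counting error only. Mutants did not show such a rise: Gabrd lay at 0 to 0.542 CPM without Cre. With Cre it lay at 0.116 to 0.381 CPM in all mutants but 14703-4, which had 4.56 CPM.

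Grin3b, an NMDA subunit known from motor neurons that binds glycine, had the largest rise of all members. With Cre it lay at 4.67 to 11 CPM (median 7.78) in wild types and 5.17 to 8.23 CPM (median 6.09) in mutants. Without Cre it lay at 0 to 2.22 and 0 to 0.903 CPM. The groups did not overlap, and the change was 3.58 ± 0.46 (adjusted p = 7.361e-08). Its exons share 1059 bases, 32.1% of their length, with Tmem259 on the opposite strand in GENCODE vM21, and whether the counting used strand is not given in the sources used here. Tmem259 itself was higher with Cre by 1.01 ± 0.18 (adjusted p = 1.464e-05), and its part in the Grin3b values was not tested.

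Grin1 rose by 0.95 ± 0.14 (adjusted p = 1.008e-06), from 45.0 to 88.2 CPM without Cre to 100 to 227 CPM with it. It shares 1307 exon bases, 13.5%, with the antisense gene Grin1os. Grin2a, the subunit of mature synapses, rose by 0.69 ± 0.17 (adjusted p = 0.000588), with medians of 24.6 and 18.1 CPM with Cre against 11.7 and 11.9 CPM without. Grin2b, which gives slower currents, changed by -1.47 ± 0.19 (adjusted p = 4.976e-08). It lay at 55.1 to 87.3 CPM (median 69.2) in wild types and 21.4 to 101 CPM (median 41.8) in mutants with Cre, all under the 122 to 226 CPM without Cre. Grin2c, Grin2d and Grin3a were not called.

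AMPA subunits split evenly. Gria3 was higher by 0.76 ± 0.17 (adjusted p = 0.000271) and Gria4 by 0.62 ± 0.18 (adjusted p = 0.00392). In wild types Gria4 had medians of 128 CPM with Cre and 58.1 CPM without, yet the groups overlapped because mouse 14701-9 lay at 37.9 CPM. In mutants alone Gria4 was not called under TMM (0.38). Its mutant ranges overlapped, at 22.9 to 90.8 CPM with Cre and 31.0 to 82.2 CPM without. Gria1 changed by -1.04 ± 0.15 (adjusted p = 3.854e-07), and Gria2 changed by -0.73 ± 0.14 (adjusted p = 5.623e-05). Gria3, which had the highest mean CPM per kilobase of the 4 AMPA subunits in each group, lay at 69.8 to 184 CPM (median 157) in wild types and 65.5 to 116 CPM (median 94.3) in mutants with Cre, against 43.9 to 117 and 49.0 to 94.1 CPM without, so its ranges overlapped. In wild types Gria2 was at 46.1 to 76.6 CPM with Cre and 71.4 to 127 CPM without.

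Kainate subunits were mostly lower with Cre. Grik3 changed by -2.02 ± 0.20 (adjusted p = 3.636e-10), with medians of 4.16 and 5.18 CPM with Cre against 15.4 and 20.2 CPM without in wild types and mutants. Grik1 changed by -1.84 ± 0.40 (adjusted p = 0.000205), and Grik2 by -1.33 ± 0.17 (adjusted p = 4.743e-08). Grik1 had medians of 0.779 and 0.805 CPM with Cre against 3.58 and 2.81 CPM without, and Grik2 15.3 and 10.96 against 36.8 and 33.3 CPM. Grik1 was not called in mutants alone (-1.37). Of the high-affinity subunits, Grik5 was not called (-0.24 ± 0.23). Grik4 was called higher at 0.86 ± 0.37 (adjusted p = 0.0399), but it stood at 49.1 CPM in mouse 14003-1 and at 5.96 to 7.65 CPM in the other 5 mutants with Cre. That call was lost without mutant 14003-2, 14004-7, 14004-8 or 14702-9 or wild type 14004-4 or 14701-1 (all without Cre), or without wild type 14703-5 or 14004-3 (with Cre), with an adjusted p then of up to 0.0857. Without mouse 14003-1 it was 0.56 (adjusted p = 0.0466). With library series 2 alone it was 0.60 (adjusted p = 0.0657), and with Gm26924 as a covariate 0.05 (adjusted p = 0.926). Grid1, a delta glutamate receptor that organises synapses, was not called (0.36 ± 0.20).

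**Figure D2:**
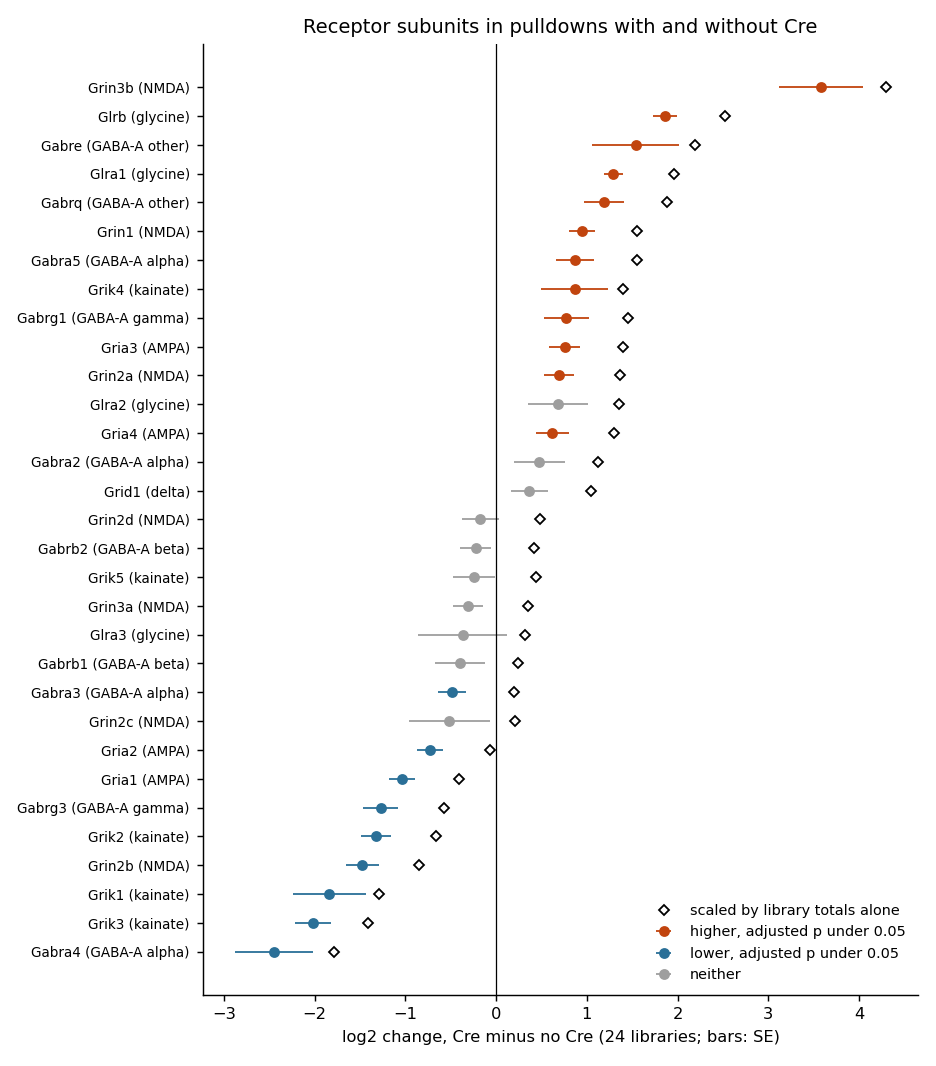
Pooled log2 change with Cre minus without Cre for 31 of the tested members (horizontal axis, points ± SE), with diamonds for scaling by library totals alone. Glrb and Grin3b lie to the right of 1 under both scalings, and the diamonds of Gria1, Gria2 and Gabra3, called lower under TMM, lie nearer to 0 or beyond it.

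Scaling mattered on the lower and the higher side. With library totals alone, in place of TMM, the median over all genes was 0.55, where TMM gave -0.12, and 17 members were called higher and 6 lower, against 46.0% and 23.9% of all genes. All 13 higher calls and 6 of the lower calls (Gabra4, Grik3, Grik1, Grin2b, Grik2 and Gabrg3) were kept, and those lost on the lower side included Gria1, Gria2 and Gabra3. A further 4 members, not called under TMM, were called higher. They included Glra2 (1.36, adjusted p = 0.00211), Gabra2 (1.12, adjusted p = 0.00470) and Grid1 (1.05, adjusted p = 0.00111). With the mouse number prefix as a block, the pooled calls of Gria4 (0.42, adjusted p = 0.149), Gabrg1 (0.48, adjusted p = 0.157) and Gabra3 (-0.42, adjusted p = 0.0503) were lost.

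Each genotype on its own gave much the same members. In wild types 11 members were higher and 11 lower (27.7% and 32.8% of all genes), and in mutants 10 and 9 (30.5% and 26.3%). Those called higher in both included Gabrq, Glra1, Glrb, Gria3, Grin1, Grin2a and Grin3b, and those lower in both included Gabra4, Gabrg3, Gria1, Gria2, Grik2, Grik3 and Grin2b. No member was called in opposite directions. With library totals alone the counts became 18 higher and 3 lower in wild types (48.2% and 17.1% of all genes) and 15 and 3 in mutants (39.5% and 15.9%). All higher calls were kept in each genotype. Of the lower genes named, Gabra4 and Grik3 stayed called in both genotypes and Grin2b in mutants, and Gabrg3, Gria1, Gria2 and Grik2 were called in neither. Glrb rose by 1.59 ± 0.15 in wild types and 2.04 ± 0.21 in mutants, Grin3b by 3.15 ± 0.62 and 3.97 ± 0.63. Glra3 was lower in wild types (-1.65 ± 0.58, adjusted p = 0.0224), a call lost without 14702-3, 14703-5 or 14004-3 (with Cre) or 14701-1 or 14702-5 (without Cre), with an adjusted p then of up to 0.0788. In mutants Glra3 was not called (0.96 ± 0.64). Glra2 was called higher in mutants (1.30 ± 0.50, adjusted p = 0.0325) and not in wild types (0.05 ± 0.42), and the interaction did not call the difference (1.01, adjusted p = 0.669). In mutants the call of Gria3 was lost without the 2 mice that stood apart (0.38, adjusted p = 0.0611), and so was that of Grin2a (0.48, adjusted p = 0.0556). Leaving out 1 library at a time ended mutant calls, those of Gria2, Gria3, Glra2, Grin2a and Grin3a among them, and the wild-type calls of Gabrg1 and Grin2a in at least 1 fit, all within the same direction. With the share of Gm26924 as a covariate, 9 members were called in mutants in place of 19. The mouse number prefix as a block left 17 members called in wild types, ending the calls of Gabrg1, Gabrq, Glra3, Gria3, Gria4 and Grin2a. For the covariate and the block, the shares of all genes called are not given here.

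A subunit's share of its class does not depend on library scaling, so shares were compared as well. Counts were divided by effective length and expressed as percent of the class total, and tested by exact two-sided permutation tests (6 against 6 libraries, smallest p 0.00216), adjusted within each comparison. In wild types 21 of 27 tested shares differed with Cre, 9 higher and 12 lower. Shares of a class add up to the whole, so a higher share of a subunit lowers others. The calls within a class are therefore not independent, here and in the comparisons below.

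**Figure D3:**
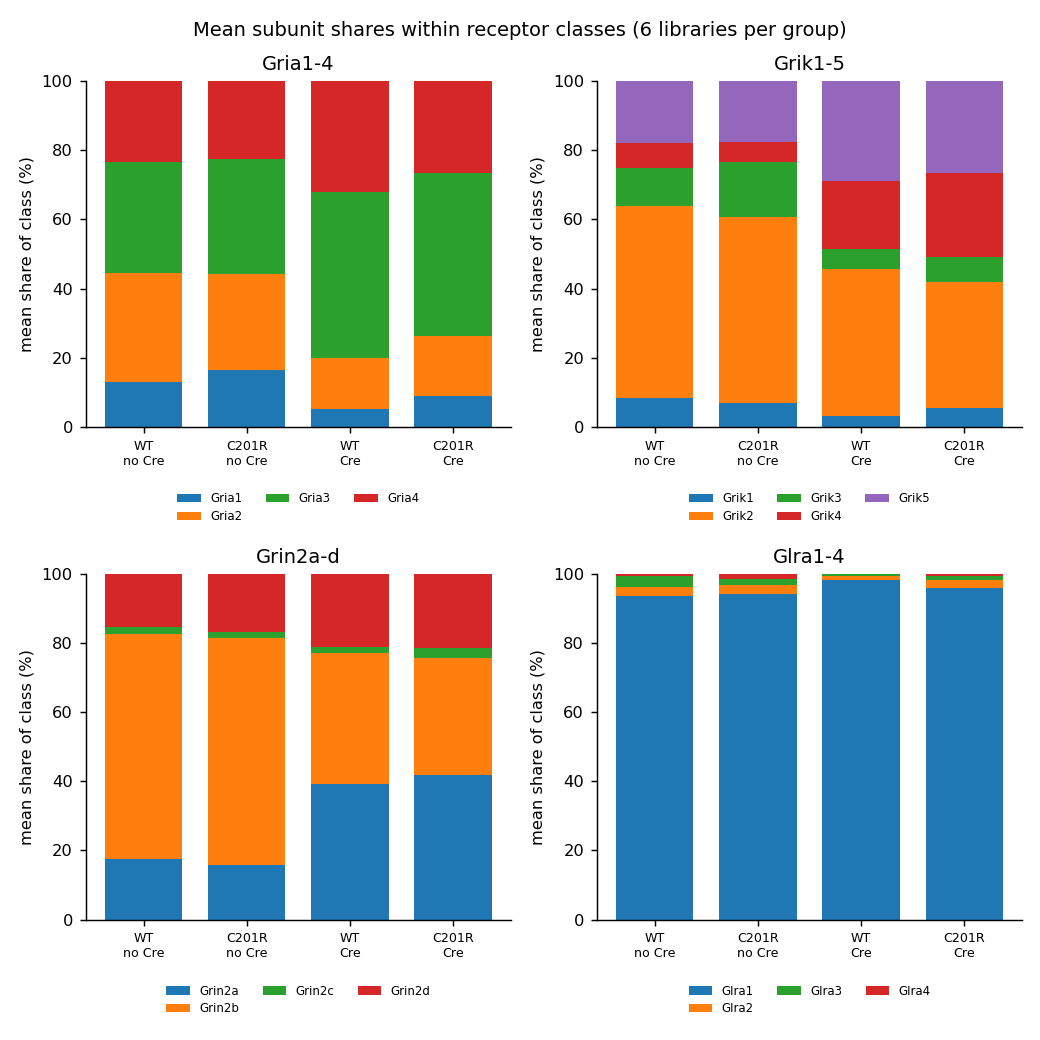
Mean share of each subunit in its class (vertical axis, percent, stacked) for 4 receptor classes in the 4 groups. Gria3 takes 48.2% and 46.9% of the AMPA class with Cre in wild types and mutants.

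In the AMPA class Gria3 took 48.2 ± 1.00% with Cre and 32.1 ± 8.57% without (SD, n = 6, wild types), whereas Gria2 took 14.6 ± 3.18% and 31.6 ± 5.36%. Among alpha subunits of GABA-A receptors, Gabra5 took 36.4 ± 5.76% with Cre and 20.5 ± 4.45% without, with no overlap (exact permutation adjusted p = 0.00487). Glra1 made up 98.2% of glycine alpha transcripts with Cre and 93.6% without. Within the Grin2 subunits, Grin2a took 39.2 ± 5.13% with Cre and 17.4 ± 4.51% without, and Grin2b 38.0 ± 6.28% and 65.2 ± 5.81%. That shift was much smaller in the deposited TPM, with differences of 6.35 points for Grin2a (exact permutation adjusted p = 0.2245) and -3.14 points for Grin2b (exact permutation adjusted p = 0.578). The share of Gabra3, 15.7% with Cre and 28.7% without, lost its call with the deposited TPM too.

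In mutants 10 of 28 shares differed with Cre, and all 10 also differed in wild types in the same direction. Gria3 rose to 46.9% from 33.1% and Grin2a to 41.9 ± 8.60% from 15.9 ± 1.199%, and Grin2b fell to 33.7% from 65.5%. Gabra5 took 29.3 ± 10.7% with Cre and 25.0 ± 5.46% without (exact permutation adjusted p = 0.512).

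Between genotypes with Cre, 1 of 36 tested members was called, Gabra5, which was lower in mutants. Over all 14634 genes 4.11% were called and 1.82% were called lower, so the members were not called more often than genes in general. Gabra5 lay at 8.12 to 34.7 CPM (median 20.3) in mutants and 19.1 to 49.5 CPM (median 45.3) in wild types. The ranges overlapped, and wild-type mouse 14701-9 was the lowest of its group while the other 5 were at 39.9 CPM or more. The change was -0.88 ± 0.22 (adjusted p = 0.0403). The call held in 4 of 12 fits that left out 1 library, with changes of -1.01 to -0.68. It was lost without mutant 14004-2, 14003-4 or 14703-4 and without wild type 14002-6, 14004-6, 14702-3, 14703-5 or 14004-3 (adjusted p up to 0.185). It was also lost with library totals (-1.13, adjusted p = 0.366), without the library series term (-0.97, adjusted p = 0.100), with the prefix block (-0.60, adjusted p = 0.460) and with Gm26924 as a covariate (-0.44, adjusted p = 0.5001).

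The other 35 members were not called. Among those highest or most raised in the pulldowns, Glrb changed by 0.02 ± 0.12, Glra1 by -0.16 ± 0.11, Grin1 by 0.22 ± 0.19 and Grin3b by -0.24 ± 0.24. Changes were below 0 in 21 of 36 members, against 50.5% of all genes, with a median of -0.20 against -0.01. At an unadjusted p under 0.05, 7 members passed and 5 of them were lower, where 18.4% of all genes passed and 9.25% were lower. Glra3 was the 1 member whose groups did not overlap in the scaling of these 12 libraries, as 1.72% of genes did on the higher side. By the scaling over all 24 libraries its ranges touched, at 1.11 to 2.72 CPM in mutants and 0.286 to 1.13 CPM in wild types. Its change was 1.39 ± 0.44 (adjusted p = 0.0926). Gabra2 (-0.96 ± 0.29, adjusted p = 0.0821) and Gria4 (-0.75 ± 0.24, adjusted p = 0.0916) also missed the threshold.

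Without mice 14003-1 and 14701-9, more members passed, as did more genes in general. Of 37 members 11 were called, 9 lower and 2 higher, against 6.79% and 6.5% of all genes. Lower in mutants were, among others, Gabra2 (-1.18 ± 0.17), Gabra5 (-0.88 ± 0.16), Gria4 (-0.82 ± 0.13), Gria3 and Grin2b (both -0.77, SE 0.12 and 0.18), Gabrg1 (-0.77 ± 0.24), Grin3a (-0.71 ± 0.13) and Grin2a (-0.44 ± 0.13). The adjusted p of the 9 ran from 0.000355 for Gabra2 to 0.0425 for Gabrg1. Higher were Glra3 (1.30 ± 0.37, adjusted p = 0.0300) and Glra2 (0.80 ± 0.22, adjusted p = 0.0267). limma-voom with quality weights on all 12 libraries called 14 members (13.7% of all genes), which included those 11, and library series 2 alone called 10 lower (5.38% of all genes), 9 of them the same. The genotype difference of these members was therefore called in some fits and in none of those with library totals, the prefix block, the Gm26924 covariate or no library series term, each of which called 0. With library totals the median over all genes was -0.26, where TMM gave -0.01. Leaving out 14701-9 alone gave 6 called members, leaving out 14003-1 or mutant 14701-5 gave 3, and leaving out any other single library gave 0 or 1. The shares of all genes called in these fits are not given here. Markers of other spinal neurons were above 0 in 8 of 8, with 0 called and a median of 0.30. Of 8 markers of cholinergic neurons 5 were above 0 and 3 below, with a median of 0.15, and Chat changed by 0.24 ± 0.17 (adjusted p = 0.512). The 2 called were both lower, Chodl at -1.02 (adjusted p = 0.000635) and Calcb at -0.88 (adjusted p = 0.0125). Without the 2 mice, Slc17a6, the vesicular transporter of glutamatergic neurons, and Slc6a5 were called higher in mutants too, by 0.39 (adjusted p = 0.0458) and 0.50 (adjusted p = 0.0146). The part of other spinal neurons in the result was not tested.

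**Figure D4:**
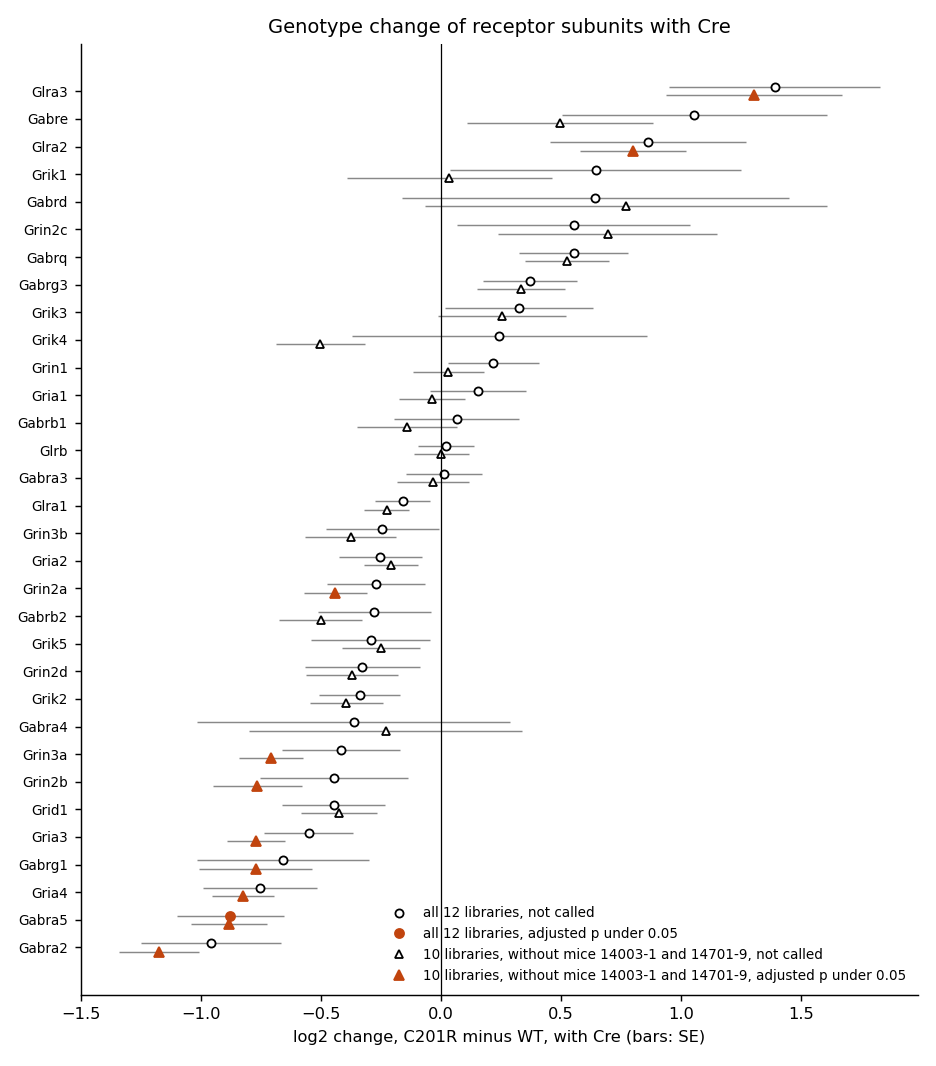
Log2 change of mutants minus wild types with Cre (horizontal axis, points ± SE) for 32 of the tested members in all 12 libraries and in the 10 without mice 14003-1 and 14701-9. Gabra5 is at -0.88 in both, and Gabra2 moves from -0.96 to -1.18.

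Shares between genotypes with Cre gave 0 of 26 calls, with 7 at an unadjusted p under 0.05. The smallest adjusted p was 0.0563 (exact permutation), for Glra3, which took 1.197 ± 0.35% of glycine alpha transcripts in mutants and 0.405 ± 0.159% in wild types. Without the same 2 mice (5 against 5, smallest p 0.00794) 7 shares were called at an exact permutation adjusted p of 0.0295. Higher in mutants were Glra3 (1.28% against 0.440%), Glra2 (2.77% against 1.38%), Gria1 (7.46% against 4.60%), Gria2 (19.1% against 13.4%), Gabra3 (23.2% against 13.2%) and Grin2c (3.13% against 1.34%). Lower was Glra1, at 95.3% against 98.0%. Leaving out mouse 14003-1 alone gave 5 calls, those of Glra1, Glra2, Glra3, Gria3 and Grin2c.

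**Figure D5:**
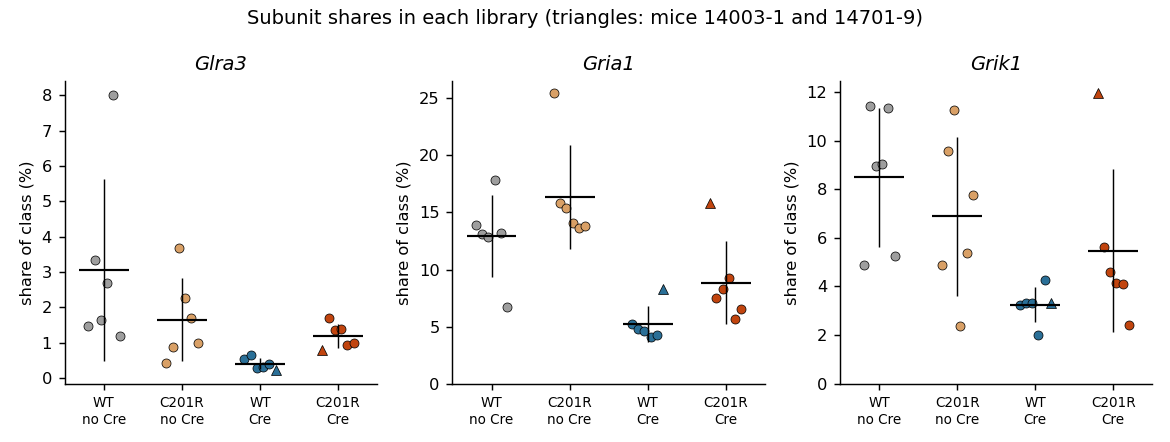
Share of Glra3, Gria1 and Grik1 in their classes (vertical axis, percent) by library in the 4 groups, with triangles for mice 14003-1 and 14701-9. The Glra3 share averages 1.197% in mutants and 0.405% in wild types with Cre.

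Without Cre no genotype difference was called in these subunits. Of 34 tested members 0 were called by edgeR, as for 0% of all 14400 genes, and 0 passed at an unadjusted p under 0.05, which 3.16% of all genes did. DESeq2 and limma-voom also called 0 members. Changes were below 0 in 25 of 34, against 54.5% of genes, with a median of -0.10. Shares gave 0 calls of 28 as well. Cholinergic markers were below 0 in 7 of 7 in these pulldowns, with a median of -1.02 and 0 called.

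The interaction asks whether mutants and wild types differed by other amounts with Cre than without it. It was called for 0 of 35 members by edgeR, against 0.13% of all genes, and DESeq2 and limma-voom called 0 too. At an unadjusted p under 0.05, which 9.08% of all genes passed, there were 2 members, Glra3 (2.25 ± 0.81, adjusted p = 0.386) and Gabra5 (-0.88 ± 0.38, adjusted p = 0.467). A genotype change particular to the Cre pulldowns was therefore not shown for any member.

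Partner genes of the receptors were read from lists of known genes. Of 15 auxiliary subunits of AMPA and kainate receptors, which steer trafficking and gating, 5 were higher with Cre in both genotypes pooled and 5 lower. Cacng5 rose by 1.93 and Cacng3 by 1.29, and Cacng4 fell by 1.92 and Neto2 by 1.42 on the log2 scale. In the inhibitory list of scaffolds and trafficking proteins, 7 of 11 were higher and 2 lower. Among the higher were Gabarapl1 (2.37), Gabarapl2 (2.27), Gabarap (1.88) and gephyrin, Gphn (0.70). Gphn was not called in wild types alone (0.49, adjusted p = 0.0873). Of 20 excitatory scaffolds 5 were higher and 9 lower, with Dlg4, the scaffold PSD-95, at 1.05 and Homer2 at -2.09. Over all genes 33.1% were higher and 37.2% lower. With library totals alone the counts became 7 higher and 4 lower for the auxiliary subunits, 8 and 0 for the inhibitory list and 8 and 1 for the excitatory scaffolds. With RLE size factors the inhibitory list had 7 higher and 4 lower and the excitatory scaffolds 3 and 10. All genes moved the same way with library totals, to 46.0% higher and 23.9% lower.

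Genes that set the response to GABA and glycine also differed. The chloride exporter Slc12a5 was higher by 0.51 ± 0.11 over both genotypes, but was not called in wild types alone (0.21, adjusted p = 0.230). The importer Slc12a2 was lower, with a change of -2.24 ± 0.14, at 13.2 to 23.1 CPM with Cre and 50.0 to 111 CPM without. Adarb1, the enzyme that edits Gria2 transcripts, was higher at 0.63 and Adar at 0.51, and Adarb2 was lower at -1.11 (-0.47 and not called with library totals). Adar was not called in wild types alone (0.35, adjusted p = 0.0843). Of 9 tested transmitter transporters 8 were lower, among them Slc1a2 (-3.52), the glial glutamate transporter, and Slc6a5 (-2.38), which marks glycinergic neurons, and the neuronal glutamate transporter Slc1a1 was higher (0.74). Of 9 metabotropic receptors 2 were higher and 5 lower, with Grm5 at -1.67, and with library totals 3 were higher and 1 lower.

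Between genotypes with Cre, calls among the partner genes numbered 2 of 15 auxiliary subunits, 1 of 11 inhibitory genes, 1 of 8 metabotropic receptors, 1 of 9 transporters and 0 in the other lists, where 4.11% of all genes were called. Cacng3 (0.93 ± 0.20, adjusted p = 0.0167), Gsg1l (1.03 ± 0.22, adjusted p = 0.0207) and the glycine transporter Slc6a9 (0.93 ± 0.21, adjusted p = 0.0223) were higher in mutants. The adhesion protein of inhibitory synapses Nlgn2 (-0.90 ± 0.20, adjusted p = 0.0233) and the metabotropic receptor Grm4 (-0.98 ± 0.24, adjusted p = 0.0325) were lower. These 5 genes were also called with RLE size factors and without mice 14003-1 and 14701-9, and none of them was with library totals. In the pooled comparison of Cre with no Cre, Cacng3 (1.29) and Nlgn2 (1.19) were higher, and Gsg1l (-0.14) and Grm4 (0.42) were not called. Slc6a9 was lower there (-1.88), with means of 7.48 CPM with Cre and 27.2 CPM without. Which cells the genotype changes came from was not tested. Without the 2 mice, 2 auxiliary subunits were higher and 3 lower, 0 and 3 of the excitatory scaffolds, 1 and 2 of the inhibitory genes, 0 and 2 of the metabotropic receptors and 3 and 1 of the transporters, where 6.5% and 6.79% of all genes were. Nlgn2 lay at 16.98 to 61.83 CPM in mutants and 36.5 to 105 CPM in wild types. Of the 20 excitatory scaffolds none was called (0 by edgeR). Changes were below 0 in 17 of the 20, against 50.5% of all genes, and 7 were lower at an unadjusted p under 0.05, against 9.25% of all genes. Without Cre and in the interaction, 0 partner genes were called by edgeR. At an unadjusted p under 0.05, which 3.16% of all genes passed without Cre, 1 of 14 auxiliary subunits, 2 of 19 excitatory scaffolds, 1 of 2 chloride cotransporters, 2 of 9 transporters and 0 in the other 3 lists passed. In the interaction, where 9.08% of all genes passed, 1 of 15 auxiliary subunits, 5 of 20 excitatory scaffolds, 3 of 11 inhibitory genes, 1 of 2 chloride cotransporters and 0 in the other 3 lists did.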

How the data were processed

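Per the file headers, each of the 24 deposited files held for every gene an expected count, a TPM value and an effective length, which the submitters' processing notes credit to RSEM 1.2.12 and Bowtie2 2.2.0. The genome build, annotation and strand setting are not given in the sources used here. The deposited expected counts were rounded to whole numbers. The deposited TPM was used only as an alternative for subunit shares. No 2 libraries were identical, and the closest pair within a group had a correlation of 0.994 across genes. Nothing in the labels says more about replicates than the mouse number, so p-values measure the spread between these mice.

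The 42 members matched GENCODE vM21 symbols through their identifiers. After filterByExpr and TMM scaling, the robust quasi-likelihood F test of edgeR 4.0.16 (R 4.3.3) was fitted over all genes, with a term for library series and Benjamini-Hochberg adjustment at 0.05. Each SE was taken as the log2 change over the root of its F value. Each 2-group comparison used its own 12 libraries, and the pooled enrichment and the interaction all 24. Levels in CPM use a scaling over all 24 libraries. Subunit shares divide counts by the median effective length, and shares under 1% in both groups were not tested. A floor of 3 counts over a group was used where all its libraries were at 0.

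Members with full statistics are those called in a comparison (over 12 called, the 6 largest rises and 6 largest falls at a mean of at least 2 CPM) or else the 2 highest of each class. From partner lists up to 4 called genes were named. Other members were named after their values were seen. The members, lists, comparisons and the 2 mice left out were chosen with earlier results of these data known. The alternatives were RLE scaling, library totals, DESeq2 1.42.0, limma 3.58.1 (voom with quality weights), other filters, no library series term, the mouse number prefix as a block, the share of Gm26924 as a covariate, subsets of libraries, and fits that each dropped 1 library. The partner lists were refitted with other scalings and without the 2 mice, a choice made after seeing the data. Some members and partner genes enter the fits and counts and are not reported here by name. The edgeR fit of genotype with Cre was tried on simulated counts, and the permutation test was compared with another implementation on random values. The simulated counts held no library series effect, so they do not test how calls depend on the series or on single mice.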

Additional observations from a re-analysis of the deposited data

Results flagged for a closer look

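In groups of 6 libraries, a library was singled out where its gap to the nearest other, divided by the range of the group, passed Dixon's critical value of 0.625. Of 148 groups tested (36 members and the members' share of all counts, in 4 groups), 23 had such a library, where chance gives about 1 in 20. Mouse 14701-9 (wild type with Cre) accounted for 8 of them, mouse 14702-4 (wild type without Cre) for 5 and mouse 14003-1 (mutant with Cre) for 4. The groups share the same libraries and some hold low CPM values, so the flags are not independent. The number above the chance rate was not tested.

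Where it was singled out, mouse 14701-9 was always the lowest of its group. The members together took 0.0763% of its counts, against 0.233% to 0.275% in the other 5. Gabra5 was at 19.1 CPM (others 39.9 to 49.5), Gria4 at 37.9 (103 to 135), Grin2a at 10.2 (21.8 to 27.8) and Grin3a at 9.90 (27.4 to 34.6). Gabrg1 was at 3.52 CPM (17.3 to 25.3), Gria1 at 14.6 (17.6 to 19.2) and Glra1 at 147.3 (201.5 to 230.8).

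Mouse 14003-1 was the highest mutant with Cre for Grik4 (49.1 CPM, others 5.96 to 7.65), Grik1 (4.98, others 0.565 to 1.09) and Gria1 (32.3, others 14.6 to 20.7). It was the lowest for Gria2, at 24.7 CPM against 50.6 to 58.4. Another mutant with Cre, 14703-4, had Gabrd at 4.56 CPM, where the others had 0.116 to 0.381.

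Without Cre, mouse 14702-4 was the highest wild type for Gabra2 (59.1 CPM, others 18.8 to 27.8), Gabrg3 (50.2, others 12.7 to 21.6), Gabrb1 (22.1, others 3.82 to 6.16), Grik5 (25.4, others 5.15 to 12.6) and Grin2c (4.08, others 0.398 to 1.49). Glrb was highest in 14702-6 (114 CPM, others 61.5 to 74.9) and Glra3 in 14702-5 (4.81, others 1.09 to 2.22). Among mutants without Cre, Gabrg1 was highest in 14004-8 (14.1 CPM, others 5.30 to 7.19), Grik4 in 14003-3 (13.4, others 1.93 to 5.77) and Grin2c in 14702-9 (3.07, others 0.578 to 1.29).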

How the results depend on the processing

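Single members were followed where they were called in a comparison or named there by the rule above. Under settings other than leaving out 1 library, 1201 of their values stayed on their side of the threshold. Another 70 lost a call, 22 gained one and 4 called values changed sign. Members neither called nor named are left out. The 7 members that library totals newly called higher in wild types are therefore not among the 22. The 1201 include values called in neither fit, some of which changed sign, such as Glrb between genotypes with Cre (0.02, and -0.25 with library totals). The 4 came from library totals alone: Gria2 with Cre at 0.018 in wild types and 0.012 in mutants, and Gabra3 at 0.17 in wild types and 0.19 pooled. The share of Grin2d with Cre in wild types reversed with the deposited TPM, at -2.24 points. The cause was not tested.

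The count of members called between genotypes with Cre, 1, became 0 with library totals, without the library series term, with the prefix block and with Gm26924 as a covariate. It became 3 with DESeq2, 14 with limma-voom, 10 in library series 2 and 11 without mice 14003-1 and 14701-9. Leaving out 1 library gave 0 to 6. A count of members given without a share of all genes, here and below, does not set members apart from genes in general. With Gm26924 as a covariate, 9 members in place of 19 were called with Cre in mutants. Shares called between genotypes with Cre rose from 0 to 7 without the 2 mice (0 to 5 leaving out 1 library). Shares called with Cre in mutants fell from 10 to 0 in library series 2, where 3 mutants with Cre remained. With so few libraries the smallest p that the exact test can give is larger, so calls were hard to reach there.

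Leaving out 1 library gave 19 to 23 calls with Cre in wild types, 13 to 19 in mutants, 22 to 25 pooled, and 0 between genotypes without Cre and in the interaction. Shares gave 18 to 21 in wild types, 8 to 11 in mutants and 0 between genotypes without Cre.

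A replicate block made from the mouse number prefix gave 17, 15 and 20 members with Cre in wild types, in mutants and pooled, and 0 in the other 3 comparisons. The labels do not say what the prefix stands for. Members under about 3 CPM rest on few counts.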
